A study of Mus musculus with 12 samples.

Results

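Kif2c, Mad1l1, Nup160, Tpr and Ahctf1 are 5 mouse genes whose proteins serve the kinetochore, the nuclear pore or both. They are described here through every site that carried their name in 8 lists of RNA sites, 4 from immunoprecipitation with an RBM25 antibody (IP) and 4 from immunoprecipitation with control IgG. The 5 genes had 25 of the 4046 sites in these lists. Sites that overlapped by 1 bp or more were joined, which gave 9 regions of 1548, and the lists named 1000 genes in all. The genes were picked from the kinetochore and nuclear pore genes whose regions were listed in control IP and missing from the IP lists made after Rbm25 knockdown. That contrast is therefore a description below and carries no test.

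The kinetochore is the protein assembly on each centromere that holds spindle microtubules, and its checkpoint delays anaphase until the chromosomes are attached. The nuclear pore complex is the channel for proteins and RNA through the nuclear envelope, and in vertebrates it comes apart in mitosis and is rebuilt on chromatin afterwards. The machines share parts: scaffold nucleoporins move to kinetochores in mitosis, and the checkpoint protein Mad1 sits at the nuclear basket in interphase. RBM25 is a nuclear RNA-binding protein that regulates pre-mRNA splicing.

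RNA was recovered from organoids of the inner ear: clusters of epithelial cells that form when dissociated cochlear epithelium, here from mice at postnatal day 1 to 2, is cultured in Matrigel, and that were expanded for 8 to 10 days and then differentiated. Cells labelled WT received a control lentivirus and cells labelled Rbm-KO a lentivirus that knocks down Rbm25, called depleted here. Each genotype has 2 IP, 2 IgG and 2 libraries labelled Input, 12 in all, named below by genotype, antibody and number. The labels give no mouse strain, do not say which cells took up the virus and do not name separate animals, and how far Rbm25 was reduced was not analysed here.

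The lists themselves differ in ways that touch every result below. Control IP 1 and 2 held 594 and 593 sites, and 96.0% and 96.1% of each list overlapped the other. Depleted IP 1 held 813 sites and depleted IP 2 held 165, with 6 overlapping sites (0.738% of the first and 3.64% of the second), so these replicates stand apart. The IgG lists held 442 and 430 sites in control and 498 and 511 in depleted organoids. Rbm25 had 2 sites in depleted IP 1 and none in the other 7 lists. Of 10 hair cell genes Barhl1 alone had a site, in 5 lists and in neither control IP list. None of 10 supporting cell genes had a site, and of 10 proliferation genes Ccnb2 alone, in both control IP lists and depleted IP 2. Only 4.35% of all protein-coding genes had a site in any list, so sets of 10 genes say little about cell type or proliferation. The DNA replication genes Mcm4 and Mcm7, outside these sets, were in both control IP lists, as were 416 of all 1000 listed genes. Mcm7 was also in depleted IP 2 (fold 15.6). Mcm4 and Mcm7 belong to no set fixed beforehand, so nothing is read from them. The lists give sites and not transcript levels. Sequencing depth is unknown, since the lists hold no read counts.

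All 5 genes were listed in both control IP libraries and none in either depleted IP library. Each control IP list held the same 9 regions, 1.52% of its sites, and each depleted IP list held 0. In the IgG lists Tpr was present in all 4 libraries, while Kif2c, Mad1l1, Nup160 and Ahctf1 were in none. Counted by gene and list, 14 of 40 combinations held a site. A region missing from a list cannot tell apart fewer cells with the transcript, less of it per cell and less of it bound by the antibody.

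**Figure D1:**
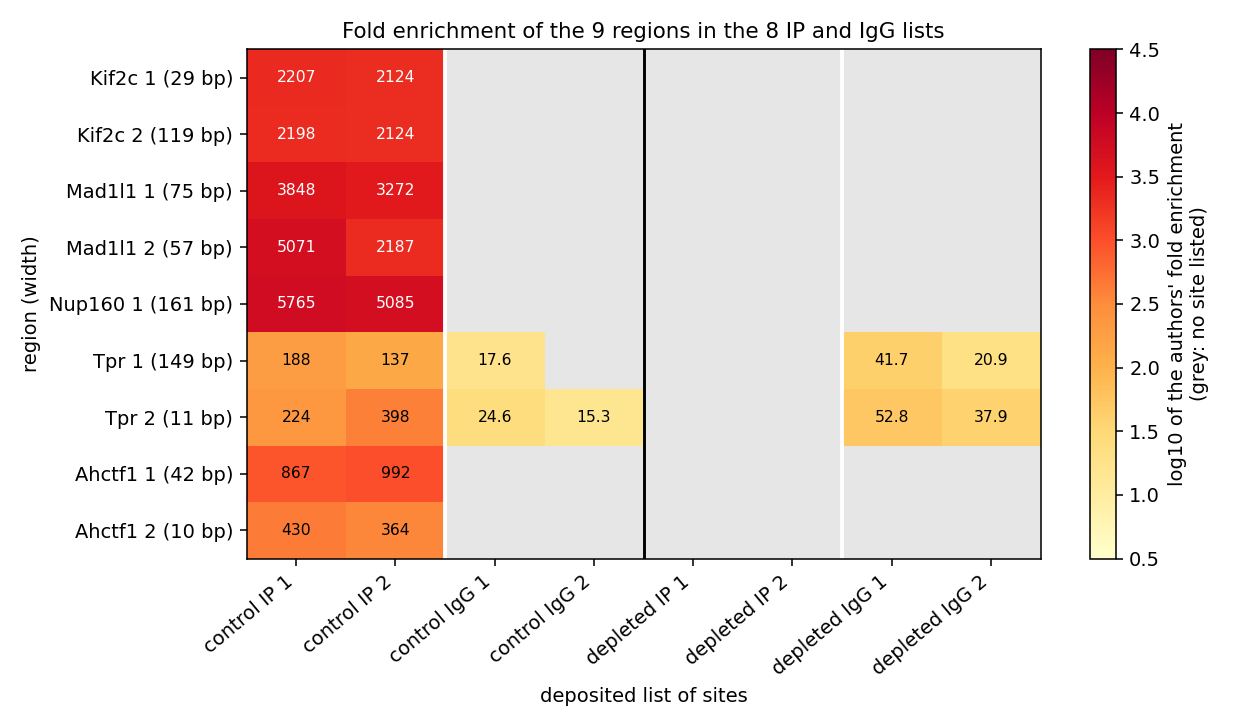
The authors' fold enrichment (log10 colour scale, value printed in each cell) of 9 regions in rows, named by gene, number in coordinate order and width, across 8 deposited lists in columns; grey cells had no site. All 9 regions are filled in both control IP columns and empty in both depleted IP columns, and only the Tpr rows are filled under IgG.

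The control IP sites of these genes were placed identically in the replicates. All 9 regions had a site with the same start and end in control IP 1 and control IP 2, as did 79.1% of the 570 regions that these libraries shared. All 9 also carried a score of 3100 in both lists, a score being −10 times the log10 of p as the peak caller gave it. That value was reached or passed in both lists by 79.8% of shared regions, so it does not set these genes apart. The authors' false discovery rate was 16.21% for the 9 sites in control IP 1 and 17.35% in control IP 2, values that 464 and 469 sites of these lists carried. None of these control IP sites therefore passed a rate of 5%, and neither did any other site of these lists. The lowest rate of any site was 16.19% in control IP 1 and 17.35% in control IP 2.

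The strength of a site is given here as the authors' fold enrichment, a ratio of the peak over the caller's background. The background library is not given in the sources used here, so folds are ranked within their own list. By the strongest site of each gene, the order was Nup160, Mad1l1, Kif2c, Ahctf1 and Tpr in both control IP libraries. The ranges over the replicates did not overlap between neighbours in this order: 5085 to 5765 for Nup160, 3272.5 to 5071 for Mad1l1, 2124 to 2207 for Kif2c, 867 to 992 for Ahctf1 and 224 to 398 for Tpr. The Mad1l1 range joins its 57 bp site in control IP 1 and its 75 bp site in control IP 2. Taken by site, the 57 bp Mad1l1 site had a fold of 2187 in control IP 2, within the Kif2c range. The order describes peaks over background and not transcript levels.

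**Figure D2:**
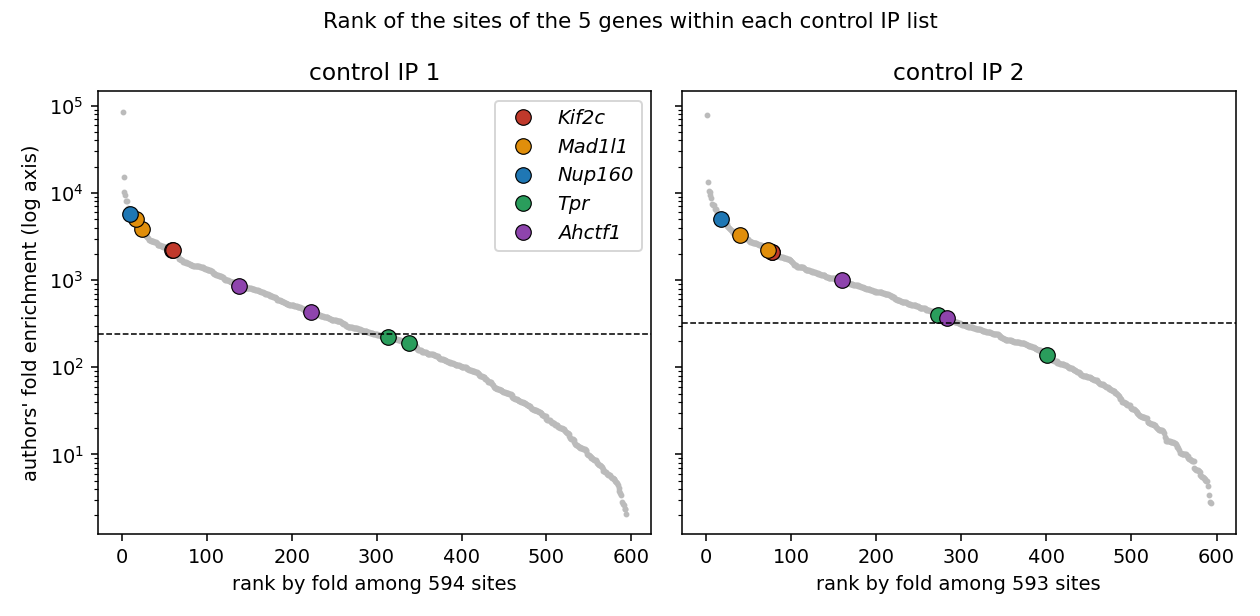
Fold enrichment on a log axis against rank within control IP 1 (left, 594 sites) and control IP 2 (right, 593 sites); grey points are all sites, coloured points the sites of the 5 genes, and the dashed line is the list's median. Nup160, Mad1l1, Kif2c and Ahctf1 lie above the median in both lists. Tpr lies below it in control IP 1 and on both sides of it in control IP 2.

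Kif2c encodes a microtubule-depolymerising kinesin, also called MCAK, that works at centromeres and kinetochores to release wrongly attached microtubules. Its regions lie on chromosome 4 at 117180638 to 117180666 (29 bp) and 117182431 to 117182549 (119 bp), assigned by the authors to transcript NM_134471. The 119 bp site had a fold of 2198 in control IP 1 and 2124 in control IP 2, and the 29 bp site had 2207 and 2124. Both sites thus had nearly equal folds, with identical values in control IP 2, where they shared rank 77 of 593; in control IP 1 they held ranks 59 and 60 of 594. Kif2c is transcribed from the minus strand, and the 119 bp site starts 75 bp from the 5′ end of the RefSeq gene interval. The gap between the sites is 1764 bp.

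Mad1l1 encodes Mad1, the checkpoint protein that recruits Mad2 to unattached kinetochores. Its regions lie on chromosome 5 at 140307696 to 140307770 (75 bp) and 140314990 to 140315046 (57 bp), on transcript NM_010752. The 75 bp site had a fold of 3847.5 in control IP 1 and 3272.5 in control IP 2, at ranks 24 and 40. The 57 bp site had a fold of 5071 in control IP 1 and 2187 in control IP 2, at ranks 17 and 73. The 57 bp site was the stronger one in control IP 1 and the weaker one in control IP 2, so the order of the Mad1l1 sites was not stable. Mad1l1 also lies on the minus strand and spans 313 kb, of which both sites fall in the 5′ part, 6.56 and 13.8 kb from the 5′ end of the gene interval.

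Nup160 encodes a scaffold nucleoporin of the outer ring of the pore, in the subcomplex that also binds kinetochores in mitosis. It had a single region, on chromosome 2 at 90721190 to 90721350 (161 bp, transcript NM_021512), which was the widest of the 9. Its fold was 5765 in control IP 1 and 5085 in control IP 2, at rank 10 of 594 and rank 17 of 593. These were the highest folds among the 5 genes in both libraries. The region lies 44.0 kb from the 5′ end of a gene of 62.1 kb on the plus strand, past 70.8% of its length, and is the only one of the 9 in the 3′ part of its gene.

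Ahctf1 encodes ELYS, which binds chromatin at the end of mitosis and brings the outer-ring subcomplex there to start pore assembly. Its regions lie on chromosome 1 at 179788298 to 179788339 (42 bp) and 179790299 to 179790308 (10 bp), on transcript NM_026375. The 42 bp site had a fold of 867 in control IP 1 and 992 in control IP 2, at ranks 138 and 160. The 10 bp site had a fold of 430 in control IP 1 and 364 in control IP 2, at ranks 223 and 283. The 42 bp site was the stronger one in both libraries. The gene lies on the minus strand, and the sites begin 15.7 and 13.7 kb from the 5′ end of its interval, with 1959 bp between them.

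Tpr encodes the filament protein of the nuclear basket, the structure on the nuclear face of the pore where Mad1 is held in interphase. Its regions lie on chromosome 1 at 150414666 to 150414814 (149 bp) and 150416069 to 150416079 (11 bp), on transcript NM_133780. The 149 bp site had a fold of 187.5 in control IP 1 and 137 in control IP 2, at ranks 338 and 401. The 11 bp site had a fold of 224 in control IP 1 and 398 in control IP 2, at ranks 313 and 273. These were the lowest ranks of the 5 genes in control IP 1, where both sites were below the median fold of 241. In control IP 2 the 149 bp site was below the median fold of 323 and the 11 bp site above it. The sites lie 21.9 and 23.3 kb from the 5′ end of a plus-strand gene of 57.1 kb, with 1254 bp between them.

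**Figure D3:**
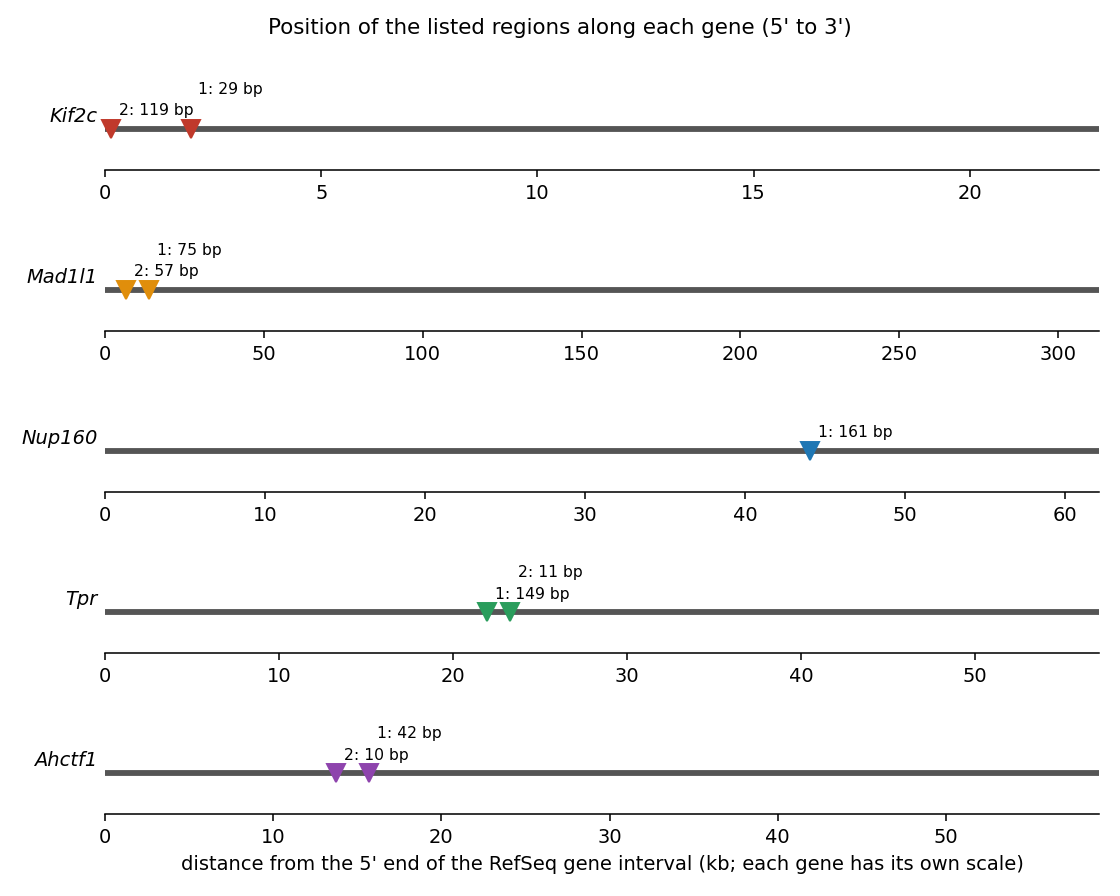
Each gene interval is drawn 5′ to 3′ with its own axis in kb from the 5′ end; triangles mark the centres of the listed regions and are labelled with their number and width. Kif2c and Mad1l1 regions sit near the 5′ end, Tpr and Ahctf1 regions further in, and the Nup160 region at 44.0 kb of 62.1 kb.

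Regions of the same gene were neighbours among the called peaks. Kif2c, Mad1l1, Tpr and Ahctf1 each had 2 regions, against 35.0% of the 414 genes with a region in both control IP lists that had 2 or more. The peak numbers in the lists ran in position order along every chromosome, and they were consecutive in all 11 cases where 1 list held 2 sites of one of these genes. No further peak was therefore numbered within the gaps of 1.25 to 7.22 kb. The sites were narrow beside the median widths of 115 and 118 bp in the control IP lists: 6 of the 9 were under 100 bp, and the 10 and 11 bp sites were among 13 of that width or less in each control IP list. No genome sequence was used, so whether the sites cover exons or introns was not analysed here, and no site sequence is shown.

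Most of the 9 regions had folds that differed less between the control replicates than the median of the shared regions. The 11 bp Tpr site and the 57 bp Mad1l1 site differed more. The larger fold over the smaller was 1.03 and 1.04 for the Kif2c sites, 1.13 for Nup160, 1.14 and 1.18 for Ahctf1 and 1.18 for the 75 bp Mad1l1 site. It was 1.37 and 1.78 for Tpr and 2.32 for the 57 bp Mad1l1 site. The median over the 9 regions was 1.18, beside 1.54 over the 570 shared regions. Of the 9 regions 7 were higher in control IP 1, whereas 204 of the 570 were. These ratios describe 2 libraries, and no test was made on them.

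**Figure D4:**
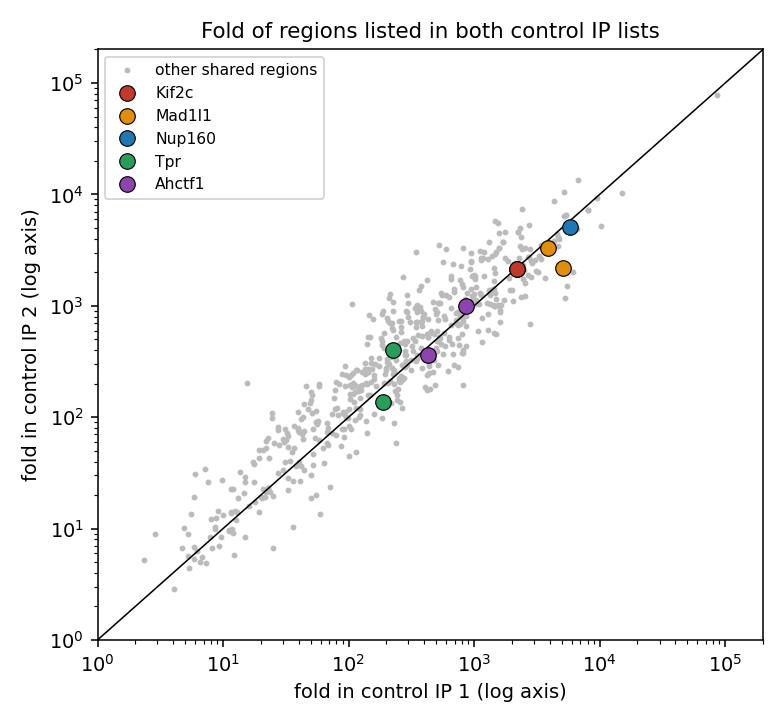
Fold in control IP 2 against fold in control IP 1, both on log axes, for the 570 regions listed in both; coloured points are the 9 regions and the line marks equal folds. Most coloured points lie close to the line, with the 57 bp Mad1l1 region (5071 and 2187) farthest from it.

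The comparison of IP with IgG asks which RNA the RBM25 antibody recovered beyond a control antibody. In control organoids 7 of the 9 regions were absent from both IgG lists, beside 63.9% of the 570 shared regions, and no difference is read from so few. The remaining 2 regions belong to Tpr. The 11 bp Tpr site was listed with the same boundaries in control IgG 1 (fold 24.6, score 160) and control IgG 2 (fold 15.3, score 99). The 149 bp Tpr region was matched in control IgG 1 by a 100 bp site with the same downstream end (fold 17.6, score 109), and it was not listed in control IgG 2. Each of these control IgG sites carried a false discovery rate of 100%, as did 372 of 442 and 373 of 430 sites in those lists. Within the IgG lists they ranked low: 268 and 328 of 442, and 333 of 430.

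The comparison of control with depleted IP asks which regions were no longer listed after Rbm25 knockdown. All 9 regions had a site in each control IP library and none in either depleted IP library, beside 67.2% of all 570 shared regions. The genes were chosen for this pattern, so the count is given without a reading. Against depleted IP 1 alone the background was 76.7%, and against depleted IP 2 alone it was 90.2%, with all 9 regions missing in both cases. At the level of genes, 59.6% of the 416 genes in both control IP lists had no site in either depleted IP list. With 2 lists against 2, an exact two-sided permutation test cannot give a p below 0.333, and none was computed.

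The peaks on either side show what the depleted IP lists held nearby. In depleted IP 2, Tmem59 and Rlf had consecutive peak numbers, 207 and 208, on either side of Kif2c, and Eif2d and Ralgps2 had numbers 10 and 11 on either side of Tpr. No peak was thus numbered at the 4 regions of Kif2c and Tpr in that library. At the other 5 regions 1 or 2 numbers fell between the listed neighbours, and 1 to 5 numbers did so at all 9 regions in depleted IP 1. A peak that is outside the list could lie there, so for these regions the lists show only that no site was assigned to the gene. In depleted IP 1 the nearest listed sites were in Hectd3, 0.176 Mb from the 29 bp Kif2c region (fold 330), in Ptpmt1, 0.19 Mb from the Nup160 region (fold 806), and 1.02 Mb or more from the regions of the other genes. In depleted IP 2 they lay farther away, 1.66 Mb from Nup160, 4.01 Mb from Kif2c, 6.39 Mb from Tpr and 11.6 Mb from Ahctf1, with 2.14 Mb for the 75 bp Mad1l1 region.

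Tpr was the exception among the 5 genes in depleted organoids, since both of its regions were listed in both IgG libraries. The 11 bp site had folds of 52.8 and 37.9 in depleted IgG 1 and 2, with scores of 522 and 420 and false discovery rates of 48.5% and 57.2%. The 100 bp site had folds of 41.7 and 20.9, with scores of 370 and 283 and rates of 71.0% and 79.7%. Both depleted IgG lists thus held Tpr sites, at high false discovery rates, where the IP lists of the same number held none. The absence from depleted IP was part of the choice of Tpr. Of the 570 shared regions 39.8% were in both depleted IgG lists, and of these 227 regions 45.4% were in neither depleted IP list, against 67.2% of all 570. Kif2c, Mad1l1, Nup160 and Ahctf1 had a site in no list other than the control IP lists, as had 40.6% of the 416 genes in both. By region these were 7 of the 9, beside 46.3% of the 570.

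The lists labelled Input gave no further measure of these genes. Each repeated the same-numbered IP list after removal of every site that touched the IgG list, with 0 exceptions in 4 such pairs. The control Input lists held 7 and 8 sites of the 5 genes: Tpr was filtered out of control Input 1, and its 149 bp site stayed in control Input 2, since control IgG 2 had no site there.

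Other genes of the same machines were looked up after the 5 chosen genes, which all had sites, were set aside. Setting known hits aside lowers the share, so it cannot be compared with that of genes in general. Of 144 further kinetochore, nuclear pore, transport receptor and nuclear envelope genes looked up, 7 (4.86%) had a site in any of the 8 lists, beside 4.35% of the 21900 protein-coding genes of the gene table. Of these 7 genes, 2 had a region in both control IP lists and 1 of these regions was missing from both depleted IP lists. This was Kpna1, an importin alpha that carries proteins through the pore, with folds of 230 and 200 in control IP and no other site. The 3 looked-up nucleoporin genes with a site are all among the chosen 5, and none of the 30 further ones had a site. Of the 66 further kinetochore genes, Mis12, Spag5 and Cenpq had sites, each of them in depleted IP 1.

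These kinetochore genes were not among those chosen for absence from depleted IP, so their difference from the 5 follows from the choice. Mis12, a subunit of the kinetochore's microtubule-binding core, had control folds of 652.5 and 947 with the RBM25 antibody and of 61.5 and 33.7 with IgG. After depletion its fold was 104 in IP 1, and 127 and 126 with IgG. It was listed in every library but depleted IP 2. Spag5, which encodes the spindle protein astrin, had a fold of 2761 in depleted IP 1 and of 109 and 72.1 in depleted IgG, and no site in any control list. Cenpq, a subunit of the inner kinetochore, had a fold of 1598 in depleted IP 1 and was in no other list.

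Of the transport and envelope genes with a site, Kpna1 alone was in control IP. Ranbp1, a regulator of the Ran GTPase that drives transport, had a fold of 4224 in depleted IP 2 alone. Syne4, which encodes an outer nuclear membrane protein needed by hair cells, had a fold of 16653 in depleted IP 1. With IgG its folds were 291 and 112 in depleted and 19.5 and 25.4 in control organoids. Lmna, which encodes lamins A and C, had folds of 52.8 and 32.7 in control IgG alone. Of the 7 further genes with a site, 5 had one in a depleted IP list, beside 63.5% of all 1000 listed genes. The 5 chosen genes, which have none there, are not among the 7.

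**Figure D5:**
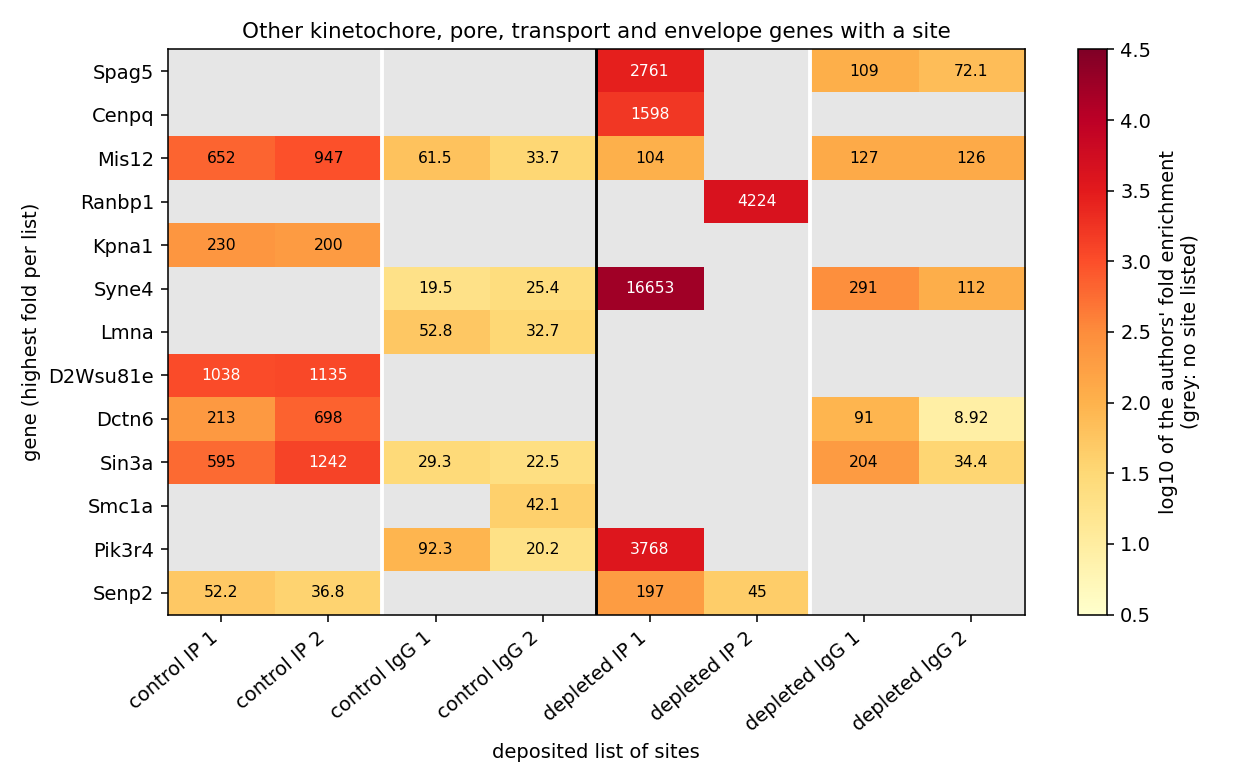
Highest fold per list (log10 colour scale, value printed) of 13 other genes that were looked up or annotated to the kinetochore or nuclear pore; grey cells had no site. Spag5, Cenpq, Syne4, Ranbp1 and Pik3r4 are filled in a depleted IP column and empty in both control IP columns.

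The authors' own annotation beside each site named further genes. Of 11 genes annotated to the kinetochore in the 8 lists, 9 were in both control IP lists and 8 had a region missing from both depleted IP lists, but 5 of these are the genes chosen for that pattern. Among the others in both control IP lists it was 3 of 4. None of these 3 had any depleted IP site, as was so for 59.6% of all 416 genes in both control IP lists. These 3, named after their values were seen, were D2Wsu81e, called Spout1 in RefSeq (folds 1037.5 and 1135 in control IP and no other site), the dynactin subunit gene Dctn6 (213 and 698) and the corepressor gene Sin3a (595 and 1242.5). Dctn6 and Sin3a were also in both depleted IgG lists, and Sin3a in both control IgG lists, as Tpr was. Of 7 genes annotated to the nuclear pore, 6 had a region missing from both depleted IP lists, and 4 of these are chosen genes. The other two were Kpna1 and Senp2. The SUMO protease gene Senp2 was still listed in both depleted IP libraries at other positions, with folds up to 197 and 45. It therefore does not count among genes without a depleted IP site, the measure behind the 59.6%, whereas Kpna1 does. The annotated genes outside control IP were Spag5 and Smc1a (fold 42.1 in control IgG 2 alone) for the kinetochore and Pik3r4 (3768 in depleted IP 1, 92.3 and 20.2 in control IgG) for the pore.

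Many other genes shared the pattern of these 5. The presence of Kif2c, Mad1l1, Nup160 and Ahctf1, in both control IP lists and no other, was shared by 165 genes outside the 5, and the presence of Tpr in 6 lists was that of 40. Likeness within a pattern was measured as the larger over the smaller of the highest folds of both genes, as a geometric mean over the lists that held them. Closest to Mad1l1 was Ints9 (ratio 1.08 over 2 lists), closest to Nup160 was Ogdhl (1.2) and closest to Ahctf1 was Ranbp9 (1.05). Closest to Tpr was Ubr4 (1.27 over 6 lists), followed by Tnrc6a and Hyou1.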

How the data were processed

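Reads were trimmed with cutadapt 1.9.3 and aligned with HISAT2 2.0.4, and the build is named mm8, per the submitters' processing notes. Peak identifiers in the files begin with MACS; its version, settings and background are not stated there. The authors deposited, per library, a fold ratio over background, a score (−10 times log10 of p, per the file headers), a false discovery rate in percent and another measure, the site width in bp. All 9 regions lay inside their RefSeq gene interval on GRCm38.p6, as did 97.5% of the 3989 sites whose gene was found, so coordinates appear to be GRCm38 and are printed counting from 1. Gene strand and 5′ end come from RefSeq.

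Sites were joined by overlap of 1 bp and counted with Python 3.11.15 and pandas 2.3.3; joining was tested on simulated lists. No test was made, because values exist only at each list's own sites and the genes were chosen on the contrast. Members and lists were chosen with earlier results of these data known. Named genes were the 5 members, up to 5 further genes per list by fold, and the 3 closest genes in pattern, of which the closest are printed; 1 such result, for Kif2c, is not reported here. Alternatives were a stricter overlap, fold, width and false discovery rate limits, genes in place of regions, the Input lists and leaving out each library. Nothing names separate cultures or animals, so replicate spread may be technical.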

Additional observations from a re-analysis of the deposited data

Results flagged for a closer look

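Both Tpr regions ran in opposite directions in the control and depleted libraries when IP was set against IgG. In control organoids the IP list held a higher fold than the IgG list of the same number at both regions, or held the region alone. In depleted organoids the IgG list held the region and the IP list did not, with folds of 41.68 and 20.91 at the 149 bp region and 52.79 and 37.91 at the 11 bp region in depleted IgG 1 and 2. Tpr was chosen for presence in control IP and absence from depleted IP, so any depleted IgG site at these regions gives this direction. The depleted IgG sites had false discovery rates of 48.5% to 79.7%. The difference was not tested, since folds of different lists are not on a known common scale. Of the 227 regions listed in both control IP and both depleted IgG libraries, 45.4% had no depleted IP site. This was 67.2% for all 570 regions in both control IP lists, of which the 227 are a part.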

How the results depend on the processing

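No paired analysis was possible because the results are counts over lists that come from no test; same-numbered lists were only set side by side. The 9 regions missing from depleted IP stayed at 9 when each control or depleted IP library was left out in turn (9 to 9). They also stayed at 9 with a 50% overlap and with sites under a false discovery rate of 100%. The background ran from 65.8% to 90.2% over these settings. The genes were chosen for this pattern, and their control IP sites had identical boundaries and rates of 16.21% and 17.35%. These counts of 9 were thus fixed beforehand and are no sign of stability. Restricted to sites that reached the median fold of their list it was 7, and the background rose to 98.5%, and from the Input lists it was 7 too, beside 82.7%. A minimum width of 100 bp left 3 (background 65.2%), and counting genes instead left 5 (59.6%), since fewer sites or units are then counted. These 3 were all the regions of the 5 genes with a site of that width. The 7 regions found in control IP and not in control IgG ran from 7 to 8 when libraries were left out, became 2 at that width (background 62.4%) and 4 as genes (60.8%), and 9 under the rate limit, where the background rose from 63.9% to 96.2%. The 1 further listed gene with a missing region became 0 at 100 bp or more, and 2 without depleted IP 1, where Mis12 joined Kpna1 (1 to 2 over libraries left out). Regions in any list were 3 at 100 bp or more, and the 14 gene and list combinations fell to 9 with the width limit and 9 with the fold limit. Of 35 alternative values 26 stayed within 1.5 times the count reported, including the counts of 9 fixed by the choice of genes. Unknown depth and an unnamed background limit any comparison of folds between lists.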
